A study of Mus musculus with 4 samples.

Results

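In these heart sections 9 genes used as markers of vascular wall cells were followed. Of these genes, 4 are markers of contractile smooth muscle (Myh11, Tagln, Cnn1 and Mylk) and 5 of pericytes (Rgs5, Kcnj8, Abcc9, Notch3 and Pdgfrb). They were chosen by symbol from the 32285 genes of the count files, where each symbol occurred once. Visium spatial transcriptomics, in which each barcoded spot on a slide collects mRNA from the small group of cells above it, was run on 1 heart section from 1 mouse at each of days 1, 4, 7 and 14 after myocardial infarction (MI). All 4 mice were adult ICR animals in which the left anterior descending (LAD) coronary artery had been tied permanently, and the methods give the ICR mice used for MI as 12-week-old females. No uninjured or sham-operated section was analysed here, so day 1 is the earliest state and not a baseline. Each day is 1 mouse, and differences between days therefore have no replicate check.

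The unit of measurement is the UMI, the tag that marks 1 captured mRNA molecule. After removal of spots in which hemoglobin transcripts exceeded 1% of UMIs, 7503 of 9102 spots remained, with 9292678 to 15713779 UMIs per section. All 9 genes had the 100 UMIs over the remaining spots required for testing, and 5 of them (Tagln, Rgs5, Kcnj8, Abcc9 and Pdgfrb) had at least 1000. Rgs5 was counted most often, with 11664 UMIs, and Cnn1 least often, with 309. The same spot barcodes recur between sections because they are positions printed on every slide, 1332 of them in all 4 sections.

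Smooth muscle cells contract through a myosin heavy chain (Myh11) acting on actin, with calponin (Cnn1) and transgelin (Tagln) bound to the filaments and myosin light chain kinase (Mylk) switching the motor on. Pericytes are the wall cells of capillaries. They are held to the endothelium by PDGF signalling through PDGF receptor beta (Pdgfrb) and keep their identity through the Notch3 receptor, and in the heart they carry an ATP-sensitive potassium (KATP) channel with Kcnj8 as its pore and Abcc9 as its regulatory sulfonylurea receptor. Rgs5 limits G protein signalling and is a common pericyte marker. None of these genes belongs to 1 cell type alone: myofibroblasts of a healing infarct make Tagln and Cnn1, fibroblasts make Pdgfrb, and cardiomyocytes use the Abcc9 protein in a KATP channel of their own with Kcnj11 as the pore.

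Kcnj8 and Abcc9 are neighbours, at chr6:142564837-142571614 and chr6:142587862-142702315, both on the minus strand of GRCm38 (mm10, GENCODE vM21), with 16247 bases between them. Their promoters are shown because the products are partners in 1 channel while their levels across the tissue parted (described below). Both are RefSeq sequences of GRCm38.p6 on the minus strand, 250 bases before the transcription start and the first 10 bases after it, at chr6:142571605-142571864 for Kcnj8 and chr6:142702265-142702524 for Abcc9. The capitals mark TGGGAA, the core recognised by RBPJ, the DNA-binding partner of activated Notch receptors, searched on both strands.
Kcnj8: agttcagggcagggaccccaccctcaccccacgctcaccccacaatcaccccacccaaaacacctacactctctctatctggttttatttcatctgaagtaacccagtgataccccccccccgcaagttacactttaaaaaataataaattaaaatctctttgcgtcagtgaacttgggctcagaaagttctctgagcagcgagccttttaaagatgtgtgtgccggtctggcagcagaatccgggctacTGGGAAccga
Abcc9: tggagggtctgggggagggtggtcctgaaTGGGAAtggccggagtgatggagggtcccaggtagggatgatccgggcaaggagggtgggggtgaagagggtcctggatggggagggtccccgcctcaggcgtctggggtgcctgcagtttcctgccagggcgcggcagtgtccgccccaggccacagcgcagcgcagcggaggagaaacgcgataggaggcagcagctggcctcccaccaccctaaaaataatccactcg
The match lies at the transcription start in Kcnj8 and 221 bases before it in Abcc9. Within 300-base windows (250 before the start and 50 after), TGGGAA occurred in 2 of the 6 member promoters given (Rgs5, Kcnj8, Abcc9, Cnn1, Mylk and Notch3) and in 25.6% of all 32851 promoter windows. The CArG box, the site of serum response factor (SRF) in many smooth muscle genes, occurred in 0 of these 6 windows and in 1.63% of all windows. Myh11, Tagln and Pdgfrb had no window here and were not searched. The Mylk window begins at chr16:34784700, inside the gene interval given below. A match is a run of letters and not evidence of binding.

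The other members lie at chr16:14194535-14291372 (Myh11, minus strand), chr9:45929619-45936058 (Tagln, minus), chr9:22099216-22109630 (Cnn1, plus), chr16:34745210-35002420 (Mylk, plus), chr1:169655501-169695813 (Rgs5, plus) and chr17:32120820-32166852 (Notch3, minus). Tagln, Mylk, Abcc9 and Notch3 overlap annotated genes on the opposite strand, and whether counting used strand is not given in the sources used here.

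Over whole sections, the smooth muscle genes were high on days 4 and 7 and low on days 1 and 14. Tagln stood at 31.8, 131, 68.7 and 19.7 counts per 1000000 UMIs of the section (CPM) on days 1, 4, 7 and 14, so day 4 was 4.11 times day 1. Cnn1 followed the same course at 2.76, 12.8, 6.13 and 2.23 CPM. The other contractile genes moved much less. Myh11, the gene most restricted to smooth muscle among the 4, was counted at 13.6, 21.4, 17.8 and 13.0 CPM. Mylk was counted at 13.6, 22.9, 24.2 and 12.0 CPM. Day 4 exceeded day 1 beyond the counting error for all 4 genes, with log2 differences of 2.04 (95% interval 1.88 to 2.20) for Tagln, 2.22 (1.67 to 2.80) for Cnn1, 0.65 (0.37 to 0.93) for Myh11 and 0.75 (0.47 to 1.03) for Mylk. These and all other intervals on counts cover counting error only. They leave out the difference between mice and the gathering of counts in some spots, described below. Fewer cells of a type and less RNA per cell cannot be told apart in spots that hold several cells.

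The pericyte genes did not share 1 course. Rgs5 was at 198, 242, 289 and 199.9 CPM on days 1, 4, 7 and 14, highest on day 7. Pdgfrb was at 50.1, 68.2, 67.8 and 41.0 CPM, nearly equal on days 4 and 7 and lowest on day 14. Notch3 was at 20.7, 22.1, 24.4 and 12.6 CPM, and its day 14 level was 0.610 times that of day 1. Both channel genes were lowest on day 4. Kcnj8 was at 39.8, 28.2, 39.9 and 32.7 CPM and Abcc9 at 130.4, 96.0, 114 and 122 CPM. For Abcc9 the day 4 level was 0.736 times day 1 (log2 difference -0.44, 95% interval -0.55 to -0.34). Transcripts of mitochondrial DNA were 24.0% to 34.1% of UMIs, and with these left out of the total the day with the highest level changed for Mylk (to day 4), Kcnj8 (to day 1) and Abcc9 (to day 14) while Tagln, Cnn1, Myh11, Rgs5, Notch3 and Pdgfrb peaked on the same day as before.

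**Figure D1:**
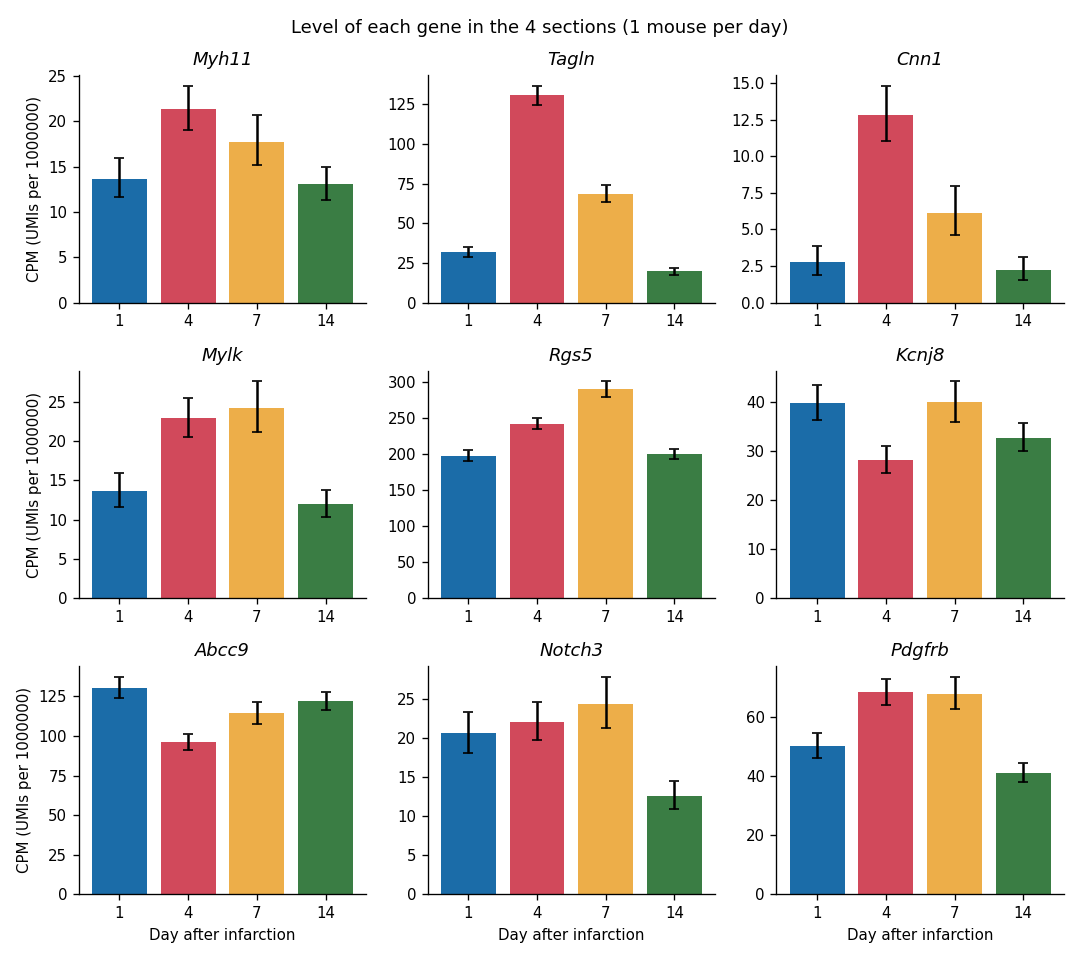
Each panel plots the level of 1 gene in CPM on the 4 days after infarction, 1 bar per section, with exact Poisson 95% intervals that cover counting error only. Tagln and Cnn1 stand far above their other days on day 4, at 131 and 12.8 CPM, while Abcc9 and Kcnj8 are lowest on that day.

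To see where in the tissue the genes lay, the spots of each section were ranked on the share of UMIs from Myh6 and Myl2, cardiomyocyte myosin genes, and cut into 4 groups of equal size. The lowest group is the tissue with least cardiomyocyte RNA and the highest group the tissue with most. The groups held 419 to 522 spots each. None of the 9 genes took part in the ranking. Summed over its 6 listed marker genes, the activated fibroblast level was 406 to 4863 CPM in the lowest groups against 27.9 to 95.6 in the highest, with all 6 markers detected in every lowest group and Cthrc1 at 0 in the highest group of day 1. The macrophage list was at 977 to 5803 CPM in the lowest groups against 259 to 401 in the highest, and the cardiomyocyte list at 4842 to 29419 against 36202 to 40042, all 6 markers of each list detected in every group. The summed endothelial list was higher in the lowest group of each section, at 485, 493, 478 and 340.2 CPM on days 1, 4, 7 and 14 against 351, 283, 432 and 276 in the highest. Its marker Kdr was lower there on days 1, 4 and 7 (59.9 against 66.4, 46.8 against 53.7 and 65.3 against 101.7). By the fit described below, 0 of the 6 markers were called higher and 1 lower, against 27.5% and 25.0% of all genes. With total UMIs as the scaling, 4 were called higher and 0 lower, against 58.2% and 10.7% of all genes. The lowest group of day 7 also held fast skeletal muscle transcripts at 15039 CPM, against 4.02 to 8.34 in the lowest groups of the other days. The adipocyte list was at 324 and 783 CPM in the lowest groups of days 1 and 7, against 21.7 and 9.98 in the highest. On days 4 and 14 it was lower in the lowest group (5.80 against 21.9 and 5.28 against 27.6). The Schwann cell list was at 94.6 and 162 CPM in the lowest groups of days 1 and 7, against 5.50 and 5.76 in the highest. On days 4 and 14 it was at 2.18 and 6.72 against 4.48 and 4.52. The part of these other cells in the results below was not tested.

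Tagln and Cnn1 were strongly enriched in tissue with little myosin on every day. Tagln was at 53.7, 487, 213 and 55.7 CPM in the lowest groups of days 1, 4, 7 and 14 and at 13.4, 32.7, 22.3 and 18.8 in the highest. No lowest group overlapped with any highest group, and the share of all genes parted in this way was not counted, here or below. Cnn1 was at 6.21, 53.3, 19.0 and 8.64 CPM in the lowest groups and at 1.72, 2.37, 2.69 and 2.14 in the highest, again without overlap of these levels. Some 95% intervals overlapped: 3.62 to 9.95 for the day 1 lowest group and 1.08 to 5.54 for the day 7 highest group. For both genes the day-to-day course lay mainly in the lowest group: its Tagln level on day 4 was 9.06 times that of day 1, against 2.43 times in the highest group. For Cnn1 the corresponding ratios were 8.58 and 1.38, and the second did not exceed the counting error. The lowest groups were not equal tissue: their cardiomyocyte list was at 24432.5, 9098, 4842 and 29419 CPM on days 1, 4, 7 and 14. The part of this difference in the course of the 2 genes was not tested.

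Mylk and Pdgfrb were also higher where myosin was low. Mylk was at 21.9, 48.9, 43.5 and 20.2 CPM in the lowest groups and at 7.91, 15.0, 16.1 and 10.9 in the highest. Pdgfrb was at 75.3, 189, 172 and 87.8 CPM in the lowest groups, while its highest groups stood at 35.8, 35.3, 36.1 and 34.5. The Pdgfrb level of cardiomyocyte-rich tissue was thus the same within counting error on all 4 days, and the differences between days lay in the other groups. Myh11 was at 17.9, 40.2, 21.1 and 20.6 CPM in the lowest groups and at 6.54, 16.6, 14.2 and 14.0 in the highest. For Myh11 the difference exceeded counting error on days 1 and 4 and did not on days 7 and 14.

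The KATP subunit Abcc9 ran the other way. It was at 71.3, 34.1, 32.0 and 93.1 CPM in the lowest groups and at 172, 132, 140.1 and 137 in the highest, with no overlap. The level stepped up with the myosin share on days 4, 7 and 14, and on day 1 the third and highest groups were nearly equal, at 170.1 and 172 CPM. Its partner Kcnj8 was far more even, at 38.4, 23.2, 22.4 and 36.9 CPM in the lowest groups and 40.6, 36.1, 44.5 and 28.8 in the highest. Kcnj8 was lower in the lowest group beyond counting error on days 4 and 7 only.

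Rgs5 had another distribution in the day 1 section than in the later ones. On day 1 it increased from 123 CPM in the lowest group through 188 and 215 to 258 in the highest. On day 4 the lowest and highest groups stood at 237 and 224 CPM, on day 7 at 274 and 248 and on day 14 at 214 and 196, differences within counting error. The resting fibroblast list was summed over 6 markers that were all detected in every group. On day 1 this sum was ordered likewise, at 1110, 1734, 2217 and 2944 CPM from the lowest to the highest group. Its markers did not share that order. Gsn was at 499 CPM in the lowest group of day 1 and 2194 in the highest. Pdgfra (74.9 against 26.5) and Mfap5 went the other way, and Lum was nearly equal (146 against 148). By the fit described below, 3 of the 6 markers were called higher in the lowest group and 1, Gsn, lower, against 27.5% and 25.0% of all genes. On days 4, 7 and 14 the sum was higher in the lowest group (3152, 4616 and 3517 CPM) than in the highest (2701, 2859 and 2218). The part of resting fibroblasts in the Rgs5 values was not tested. For Rgs5 the second group was the highest on days 4 and 7, at 297 and 349 CPM. Notch3 was even on day 1, at 20.5 CPM in the lowest group and 20.0 in the highest (log2 difference 0.04, 95% interval -0.52 to 0.59). It was higher in the lowest group beyond counting error on day 4 (40.6 against 12.1), day 7 (34.0 against 18.8) and day 14 (18.7 against 11.2).

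**Figure D2:**
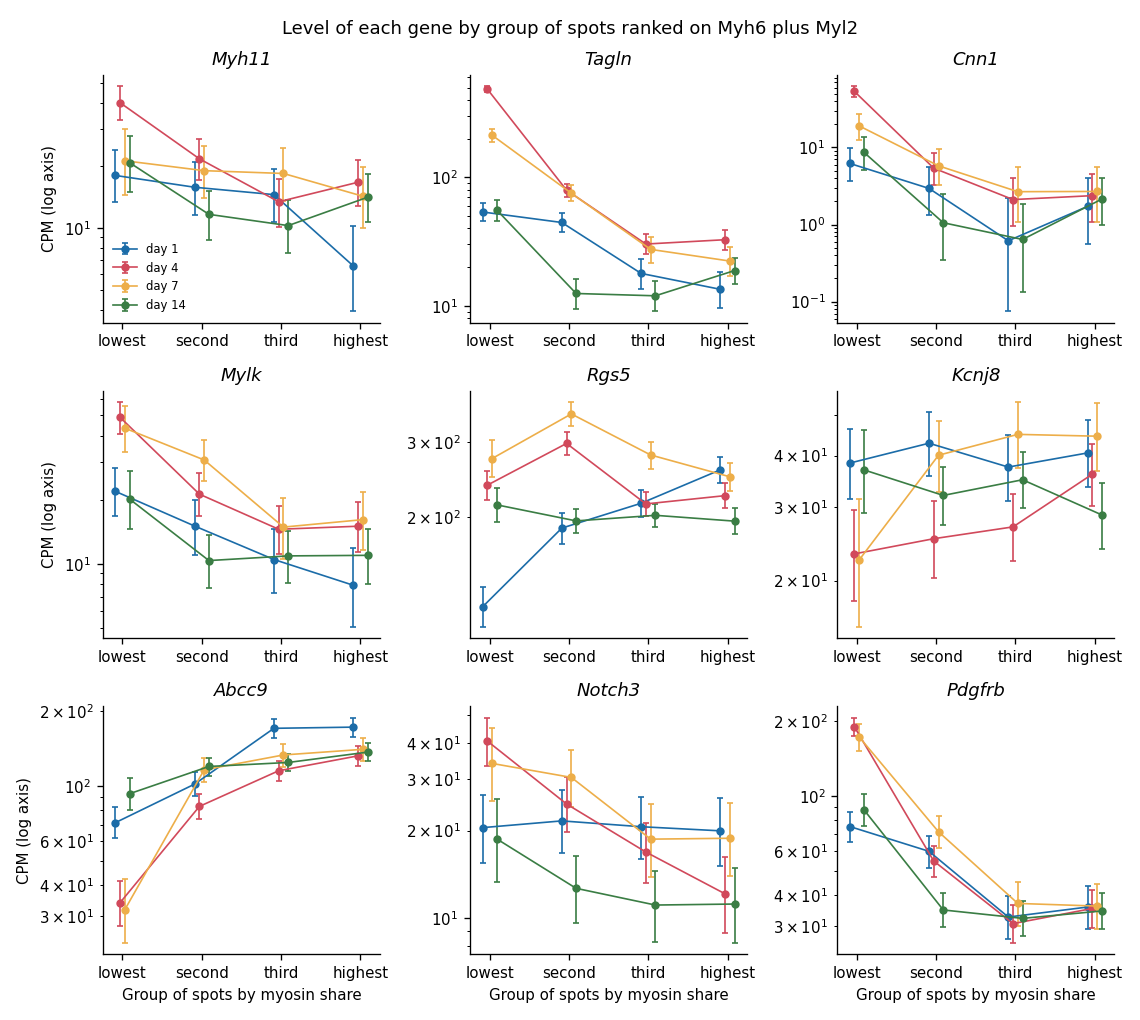
Each panel plots 1 gene's level in CPM on a log axis in the 4 groups of spots from the lowest to the highest share of Myh6 plus Myl2, 1 line per day, with exact Poisson 95% intervals for counting error. On all 4 days Tagln and Cnn1 are highest in the lowest group, without a steady slope over the others, and Abcc9 slopes up. Rgs5 slopes up on day 1 only, from 123 to 258 CPM.

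These contrasts were tested over the 4 sections, which asks what the 4 days share. The UMIs were summed per section and group (16 libraries) and fitted by edgeR with the section as a block and TMM scaling, which sets the bulk of genes to no change. By this fit 7 of the 9 genes passed an adjusted p of 0.05, against 52.5% of all 11619 genes tested, so the share is not far from that of genes at large. Higher in the lowest group were 4 members (27.5% of all genes) and lower were 3 (25.0% of all genes). Cnn1 rose most, with a log2 fold change of 2.36 (SE 0.36, adjusted p = 8.02e-05). Tagln rose by 2.11 on the log2 scale (SE 0.34, adjusted p = 0.000196), Pdgfrb by 1.17 (SE 0.17, adjusted p = 6.79e-05) and Mylk by 0.72 (SE 0.16, adjusted p = 0.00117). Abcc9 fell by 2.00 on the log2 scale (SE 0.29, adjusted p = 6.31e-05). Without day 4 the log2 fold change of Cnn1 was 1.71, and the 7 calls were made with any 1 section left out. The share of all genes called in those fits is not given here.

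For the remaining genes the call depended on the scaling. Under TMM, Kcnj8 fell by 0.92 on the log2 scale (SE 0.22, adjusted p = 0.00235) and Rgs5 by 0.80 (SE 0.19, adjusted p = 0.00226), while Myh11 (0.29, SE 0.22, adjusted p = 0.284) and Notch3 (0.22, SE 0.18, adjusted p = 0.331) did not pass. Scaling to total UMIs instead moved the median over all genes from a log2 value of 0.07 to 0.71, with 58.2% of genes called higher and 10.7% lower. On that scale Rgs5 (-0.17, adjusted p = 0.423) and Kcnj8 (-0.30, adjusted p = 0.165) did not pass, while Myh11 (0.94, adjusted p = 0.00268) and Notch3 (0.87, adjusted p = 0.0024) passed. The TMM fold change of Rgs5 is therefore a position relative to other genes, since its CPM were lower in the lowest group on day 1 only. Relative to the median of all genes, Rgs5 and Kcnj8 lay below and Myh11 and Notch3 above under both scalings. Tagln, Cnn1, Pdgfrb and Mylk were called higher and Abcc9 lower under both. In each section the mitochondrial share of UMIs was lower in the lowest group (8.73% to 29.8%) than in the highest (27.1% to 33.2%).

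**Figure D3:**
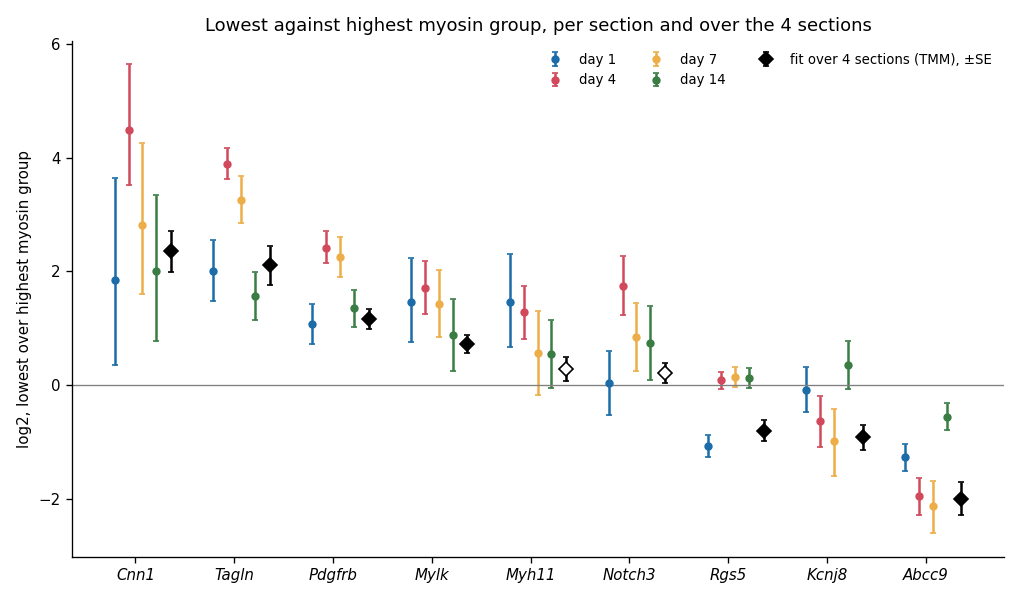
Coloured points give, for each gene and section, the log2 ratio of CPM in the lowest over the highest myosin group with exact 95% intervals for counting error, and black diamonds give the TMM-scaled edgeR estimate over the 4 sections with its standard error, filled where the adjusted p was under 0.05. Cnn1 (2.36) and Tagln (2.11) stand highest and Abcc9 (-2.00) lowest, and the diamonds of Rgs5 and Kcnj8 lie below most of their points because TMM scales to the bulk of genes, calls that are not made when total UMIs are used.

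Ratios between members of the smooth muscle set or of the pericyte set differed between the groups for some pairs. The number of Tagln UMIs counted per Myh11 UMI was 3.0, 12.1, 10.1 and 2.70 in the lowest groups of days 1, 4, 7 and 14 and 2.05, 1.97, 1.57 and 1.34 in the highest. On days 4 and 7 the intervals of the lowest and highest groups did not overlap (9.96 to 14.8 against 1.44 to 2.71 on day 4), and on days 1 and 14 they did. The number of Mylk UMIs per Myh11 UMI showed no such shift, at 0.977 to 2.06 in the lowest groups and 0.780 to 1.21 in the highest, with overlapping intervals on each day. Pdgfrb per Rgs5 was 0.611, 0.795, 0.628 and 0.411 in the lowest groups against 0.139, 0.157, 0.145 and 0.176 in the highest, without overlap. Abcc9 per Kcnj8 was 1.86, 1.47, 1.42 and 2.52 in the lowest groups against 4.24, 3.66, 3.15 and 4.74 in the highest, also without overlap. Transcripts of different genes may be captured unequally, so only the change of such a ratio between groups can be read and not its size.

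**Figure D4:**
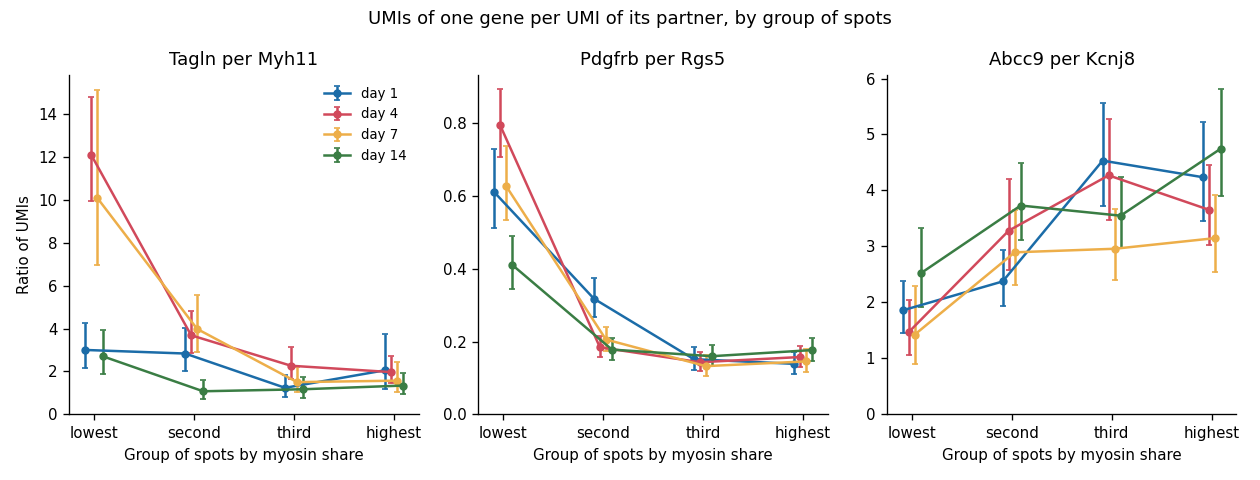
The 3 panels plot the number of UMIs of one gene per UMI of its partner in the same spots (Tagln per Myh11, Pdgfrb per Rgs5 and Abcc9 per Kcnj8) over the 4 myosin groups, 1 line per day, with exact 95% intervals for counting error. Tagln per Myh11 reaches 12.1 in the lowest group of day 4 against 1.97 in the highest, and Abcc9 per Kcnj8 is lower in the lowest than in the highest group on all 4 days.

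Other genes of the same pathways were examined in the same contrast, from lists chosen with earlier results of these data known. In that contrast 27.5% of all genes rose and 25.0% fell, and with total UMIs 58.2% rose and 10.7% fell. Of 14 other contractile smooth muscle genes tested, 7 rose and 2 fell in the lowest group, and their median log2 fold change was 0.90 against 0.07 over all genes. With total UMIs 10 rose and 1 fell, with a median of 1.58 against 0.71 over all genes. Leading them were the actin Actg2 (3.91), the tropomyosin Tpm2 (2.75, and 1.69 without the day 7 section), the caldesmon Cald1 (1.90) and the smooth muscle actin Acta2 (1.56), all of them also called with total UMIs. Of 14 other pericyte genes, 3 rose and 5 fell, with a median of -0.08, and with total UMIs 7 rose and 2 fell. The potassium channel subunit Kcne4 (2.33) and the adhesion molecule Mcam (1.75) were higher and the angiotensin receptor Agtr1a (-1.99) lower under both scalings.

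The other KATP channel subunits were lower in the lowest group, as Abcc9 was. The pore Kcnj11 had a log2 fold change of -1.97 (adjusted p = 5.25e-05) and the receptor Abcc8 one of -2.21 (adjusted p = 9.44e-05), both also lower with total UMIs. Kcnj11 stood at 20.8, 12.7, 17.7 and 33.6 CPM in the lowest groups and at 50.6, 59.8, 58.7 and 45.4 in the highest. Of 11 partners of the myosin light chain kinase and phosphatase, 2 rose and 4 fell, with a median of -0.22. With total UMIs 7 rose and 3 fell (median 0.41), where 58.2% of all genes rose and 10.7% fell. The kinases Mylk4 (-2.63) and Mylk3 (-2.21), the latter the cardiomyocyte form, fell while Mylk itself rose. The phosphatase subunits Ppp1r12b (-1.42) and Ppp1cb (-0.78) fell too, but Ppp1cb was not called with total UMIs.

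In the Notch pathway 3 of 11 genes rose and 1 fell, with a median of 0.03, a share of risers like the 27.5% of all genes. With total UMIs 6 rose and 0 fell, where 58.2% of all genes were called higher. The ligand Jag1 (1.16), the receptor Notch2 (1.12) and the DNA-binding partner Rbpj (1.04) rose. The target Hey1 (-0.86) fell under TMM and was not called with total UMIs (-0.20). Of the PDGF ligands and PDGF receptor alpha, 3 of 5 rose and 0 fell, with a median of 0.64, and with total UMIs 4 rose and 0 fell. These were the ligand Pdgfc (3.25), the fibroblast receptor Pdgfra (0.87) and the ligand Pdgfa (0.64). Of SRF and its cofactors, the smooth and cardiac muscle cofactor Myocd (-1.38) fell and Mrtfa (1.19) rose, with a median of -0.15 over 5 genes. Of 3 other small RGS genes only Rgs3 (0.64) passed, and it rose.

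Tissue with little myosin is not uniform, so the lowest group of each section was split into 2 equal groups by the share of UMIs from the collagen genes Col1a1 and Col3a1. In the collagen-rich group, Pdgfrb was at 88.3, 235, 252 and 290.2 CPM on days 1, 4, 7 and 14, and in the collagen-poor group at 63.2, 152, 111 and 43.3. Cardiomyocyte RNA moved with this split: Myh6 was at 2533, 724, 777 and 1968 CPM in the rich group and at 2167, 1735, 918 and 8057 in the poor group, and its part in the differences was not tested. Notch3 was at 28.9, 50.8, 52.0 and 47.9 CPM in the rich group and at 12.6, 32.5, 20.3 and 12.3 in the poor group. Both genes were higher in the rich group beyond counting error in all 4 sections, and the share of all genes that did so was not counted. These CPM are shares of total UMIs. In the fit of this split, total UMIs gave higher log2 values than TMM, such as 0.36 against -0.07 for Rgs5 and -0.46 against -0.86 for Abcc9. Tagln differed beyond counting error on day 7 (317 against 134) and day 14 (168 against 31.0) and not on days 1 and 4. The channel genes showed no shared direction, Abcc9 being higher in the rich group on day 1 (86.0 against 57.6) and lower on day 14 (39.9 against 105), and Myh11 was higher in the rich group on days 1 and 14 and lower on day 4 (31.2 against 47.4).

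Across the 4 sections edgeR called 0 of the 9 genes in this contrast, where it called 0 of 8541 genes (0%) and 1290 had an unadjusted p under 0.05. DESeq2 called 250 genes but also 0 of the 9, and it gave no adjusted p for Myh11 and Cnn1. The number of genes with an adjusted p from DESeq2 is not given here. Notch3 (log2 fold change 0.82, SE 0.21, adjusted p = 0.321) and Pdgfrb (0.81, SE 0.28, adjusted p = 0.321) were the 2 members with an unadjusted p under 0.05, as were 15.1% of all genes. In the collagen-rich group of day 14 a spot held a median of 1140 UMIs, against 6919 in the poor group.

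The hemoglobin limit serves in the methods to drop spots of poor quality and spots in vessels that do not overlie cells, and the 1599 removed spots were compared with the others. Tagln was at 33.4, 167, 78.1 and 25.6 CPM in the hemoglobin-rich spots of days 1, 4, 7 and 14 and at 31.8, 131, 68.7 and 19.7 in the others. It was higher in 4 of 4 sections, beyond counting error on day 4 only. Myh11 was at 5.81, 19.6, 34.3 and 16.2 CPM against 13.6, 21.4, 17.8 and 13.0, higher beyond counting error on day 7 only. These CPM are shares of all UMIs, whereas hemoglobin UMIs were taken out of the totals for the fit. In the hemoglobin-rich spots of day 1 the totals were 688347 for the CPM and 646100 for the fit. EdgeR called 0 of the 9 genes here, against 0.280% of 11779 genes, all 33 of them higher, and DESeq2 also called 0 of the 9. Tagln (log2 fold change 0.36, SE 0.12, adjusted p = 0.525) was the 1 member with an unadjusted p under 0.05, as were 4.84% of all genes.

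Counts of Myh11 and Tagln were gathered in fewer spots than those of Rgs5 in each section. The 1% of spots with most UMIs of a gene held 23.8% to 35.1% of all Myh11 UMIs, 13.8% to 27.1% of Tagln UMIs and 5.04% to 5.80% of Rgs5 UMIs, over the 4 sections. The ranges of Mylk (16.4% to 25.0%) and Notch3 (12.9% to 18.1%), genes of similar total counts, overlapped. Within each section the Mylk share was the larger, narrowly on day 7 (18.2% against 18.1%). The range of Myh11, also similar in total counts, lay above that of Notch3. Because a rare gene is counted in few spots by sampling alone, the variance of the counts was divided by what an equal share in every spot would give. Where counts gather, this ratio also grows with the level of the gene, so rare and frequent genes are not on 1 scale. This ratio was 1.62 to 4.20 for Myh11 and 1.84 to 5.31 for Tagln. For Cnn1 it was 1.25 to 3.10 and for Mylk 1.20 to 2.22. It was 1.01 to 1.21 for Kcnj8, 1.01 to 1.19 for Abcc9, 1.06 to 1.38 for Notch3, 1.33 to 1.68 for Rgs5 and 1.15 to 1.92 for Pdgfrb. The ratios of smooth muscle and pericyte genes thus overlapped. On day 7 Pdgfrb (1.70, with 630 UMIs) exceeded Myh11 (1.62, with 165) and Cnn1 (1.53, with 57). The single richest spot held 12 Myh11 UMIs (day 14) and 28 Tagln UMIs (day 4).

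Over the spots of a section the smooth muscle genes varied together. Averaged over the 4 sections (1679 to 2086 spots each), the Pearson correlation of log UMI shares was 0.24 between Myh11 and Tagln, 0.22 between Myh11 and Mylk and 0.22 between Tagln and Cnn1. Spots of a section share its library and depth and are not replicates, so these values are a description. The 6 pairs of smooth muscle genes had a median of 0.21, the 10 pairs of pericyte genes one of 0.05 and the 20 mixed pairs one of 0.01. The highest pericyte pair was Rgs5 with Abcc9 (0.09), and Kcnj8 with Abcc9 reached 0.08. After thinning each spot to 1300 UMIs the pair Myh11 and Tagln stood at 0.13 and Kcnj8 and Abcc9 at -0.01. The highest mixed pair was Tagln with Pdgfrb (0.19, from 0.08 on day 1 to 0.37 on day 4), and the lowest was Tagln with Abcc9 (-0.13).

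**Figure D5:**
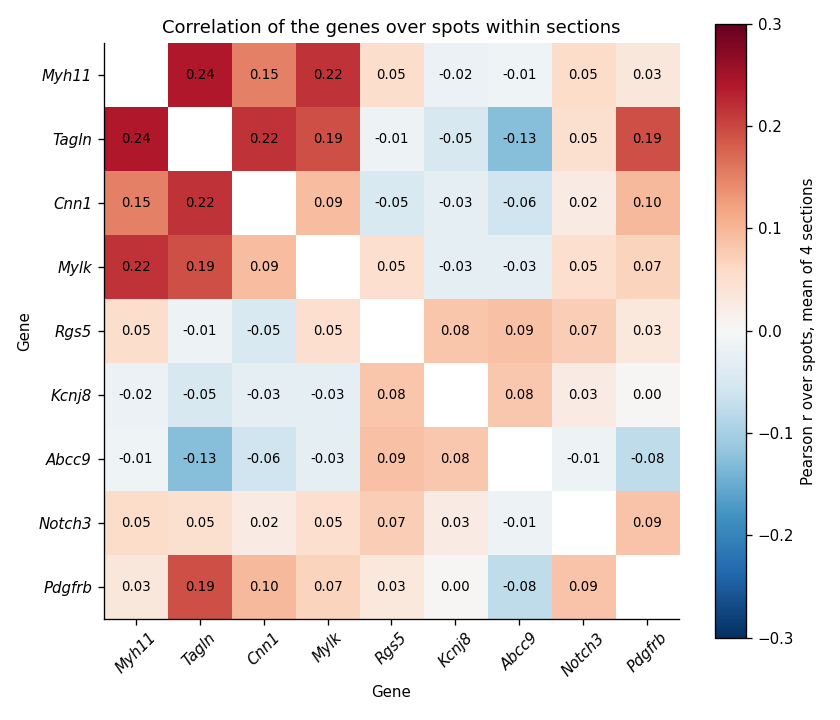
The matrix gives the Pearson correlation over spots of each pair of genes, as the mean of the 4 within-section values of ln(1 + UMIs per 10000), red above 0 and blue below. The pairs among Myh11, Tagln, Cnn1 and Mylk reach 0.24, while those among Rgs5, Kcnj8, Abcc9, Notch3 and Pdgfrb do not exceed 0.09.

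The gene most like each smooth muscle member, among 4769 genes with at least 1000 UMIs, was Acta2, with mean correlations of 0.44 for Tagln, 0.27 for Myh11, 0.23 for Cnn1 and 0.20 for Mylk. Next for Myh11 came the regulatory light chain Myl9 (0.26) and Tagln itself. Next for Tagln came the collagen gene Col1a2 (0.36) and the filamin Flna (0.36). Pdgfrb was most like Col3a1 (0.29), Sparc (0.29) and Fstl1 (0.29), extracellular matrix or secreted products. Abcc9 was most like Tnni3 (0.30), Fabp3 (0.30) and Lpl (0.30), all of them active in cardiomyocytes. For Rgs5 the leading genes were Mybpc3 (0.18), Lpl (0.17) and Tnnt2 (0.17). The leading values were near 0.11 for Kcnj8 (Hspb6, Ckmt2 and Mb) and Notch3 (Mdk, Mgp and Col3a1), too low to be read. Against the summed activated fibroblast list, the mean correlation was 0.34 for Tagln, 0.29 for Pdgfrb, 0.04 for Myh11 and -0.27 for Abcc9. Against the cardiomyocyte list it was -0.32 for Tagln, -0.25 for Pdgfrb, -0.05 for Myh11 and 0.29 for Abcc9.

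Spots with at least 3 Myh11 UMIs, a limit set after seeing the data, show what accompanied the muscle myosin. There were 8, 22, 7 and 11 such spots on days 1, 4, 7 and 14, of which 16 of 48 lay in the lowest group and 12 of 48 in the highest. These 48 spots held 225 Tagln UMIs, 8.00 times (95% interval 6.99 to 9.12) the number that the share in the other spots would give. The ratio was 14.6 (10.4 to 20.1) for Cnn1, 9.62 (7.36 to 12.4) for Mylk and 9.14 (8.38 to 9.96) for Acta2, and all 4 genes were higher in 4 of 4 sections. On day 7 Cnn1 rested on 1 UMI in such spots (4.50, 0.112 to 26.1). Rgs5 (1.12, 0.905 to 1.38), Notch3 (1.40, 0.672 to 2.58) and Pdgfrb (1.43, 0.963 to 2.04) had intervals that include 1, as did Abcc9 (0.773, 0.521 to 1.10). Kcnj8 was counted 1 time where its share in the other spots would give 11.6 UMIs (ratio 0.0866, 0.00219 to 0.482). With at least 2 Myh11 UMIs the 134 spots gave ratios of 5.53 for Tagln, 1.36 (1.21 to 1.52) for Rgs5, 1.96 (1.39 to 2.69) for Notch3, 1.57 (1.26 to 1.93) for Pdgfrb and 0.656 (0.406 to 1.00) for Kcnj8.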

How the data were processed

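Per the labels and methods, the authors sequenced Visium libraries of frozen heart sections and deposited raw UMI counts for each gene in each tissue-covered spot. The submitters' processing notes name Space Ranger 1.3.0, Seurat 4.1.1 and mm10. Spots with more than 1% of UMIs in 8 hemoglobin genes were removed, and the authors' manual removal of edge spots was not repeated. Levels are CPM, UMIs per 1000000, with exact Poisson 95% intervals, and ratios have exact conditional intervals. Sums per section and spot class were tested with edgeR 4.0.16 (limma 3.58.1, R 4.3.3), using TMM, robust quasi-likelihood dispersion, the section as block and Benjamini-Hochberg adjustment over all genes with at least 100 UMIs. The ranking genes were left out of the tested genes. Sections are different days, and p-values rest on how far the group differences vary between them. In the myosin contrast all 4 groups of each section shared 1 spread, with 9 residual degrees of freedom from 4 mice. The test was tested on simulated data. DESeq2 1.42.0 and other settings were alternatives. Named genes are the members, the ranking genes, the 3 genes most correlated with each member and, per pathway list, up to 4 called genes of largest change. A gene that this rule names is not reported here. The members and lists were chosen with earlier results of these data known.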

Additional observations from a re-analysis of the deposited data

Results flagged for a closer look

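In the ratios of the 4 sections, 27 in all for the 9 genes and 3 contrasts, 1 section stood apart. The log2 ratio of Rgs5 in the lowest over the highest myosin group was -1.07 on day 1, and the gap to the next section took 0.95 of the whole range, a share above the 95% critical value of Dixon's test for 4 values, which chance exceeds in about 1 of 20 groups. The other sections were at 0.08 (day 4), 0.14 (day 7) and 0.13 (day 14).

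For 4 results, 2 sections moved in opposite directions, each beyond counting error, and the difference between the days was not tested because each day is 1 mouse. In the collagen-rich over the collagen-poor group, the log2 ratio of Myh11 was 1.296 on day 1 and -0.61 on day 4. The day 4 interval of Myh11, -1.21 to -0.02, does not cover the gathering of its counts in some spots. The log2 ratio of Kcnj8 was 0.64 on day 1 and -1.25 on day 7, and that of Abcc9 was 0.58 on day 1 and -1.39 on day 14. In hemoglobin-rich over other spots, the log2 ratio of Notch3 was 0.67 on day 4 and -0.67 on day 7.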

How the results depend on the processing

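Of the 9 genes, Cnn1, Tagln, Pdgfrb, Mylk and Abcc9 were called in the same direction between the lowest and the highest myosin group in every setting in which they were tested, and 7 genes were called with any 1 section left out. In the main fit of this contrast 52.5% of all genes were called. The share with a section left out or without the section block is not given here. Kcnj8 was not called with total UMIs, and Rgs5 was not called with total UMIs, with UMIs of nuclear genes as totals (-0.41, adjusted p = 0.0652, a setting chosen after seeing the data) or with the 2 compared groups alone (-0.78, adjusted p = 0.0581). Myh11 and Notch3 were called with nuclear totals (0.68 and 0.61), and Myh11 also with other ranking genes (0.57). Requiring 1000 UMIs per gene left Myh11, Cnn1, Mylk and Notch3 untested there, and 3223 genes were then called of 4767. In the collagen contrast DESeq2 called 250 genes, and leaving out a section gave 0 to 6 calls. Neither contrast without a called member gained one in any setting. The fitted values not given above turned sign in at least 1 setting for 2 of 7 members in the collagen contrast and for 7 of 8 in the hemoglobin contrast. Notch3 ranged from 0.26 (ranking on Postn and Col12a1) to 1.24 (total UMIs) in the collagen contrast, and Tagln in the hemoglobin contrast was 0.0096 at a limit of 0.5% and 0.71 at 2%. Genes called in the hemoglobin contrast numbered 11 with total UMIs, 3 without the section block, 3 with 1000 UMIs per gene, 68 with 10 UMIs per gene, 52 in spots of at least 1000 UMIs, 11 at the limit of 0.5% and 10 to 46 with 1 section left out (13 without day 1, 10 without day 4). The cause of these shifts was not tested. Each contrast lies within a section, so the fit with the section as block is the paired one, and without that block 7 of the 9 genes were called between the lowest and the highest myosin group. Depth limits Cnn1 most, with 33 to 184 UMIs per section.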
